A study of Homo sapiens with 2 samples.

Results

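A group of 10 genes of fatty acid synthesis, desaturation, elongation and acyl-CoA hydrolysis were followed across 3 sets of cells in 1 long-read single-cell library. They were chosen by name: ACACA, FASN, SCD, FADS1, FADS2, ELOVL1, ELOVL5, ELOVL6, ACOT7 and ACOT9. All 10 were found among 57110 gene entries, each as an entry of 1 gene, and they held 39 of the 99493 listed transcripts. Its cells were a mixture in equal parts of COV504, IGROV1 and SK-OV-3, established ovarian carcinoma lines, with no treatment named. Sequencing was on PromethION, a nanopore device whose reads span full-length cDNA. A second library of the same pool was read on an Illumina instrument. Only its barcode list was used here, and all 2462 barcodes were shared by both libraries.

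Long-chain fatty acids are built from malonyl-CoA, which ACACA makes, by the multifunctional enzyme FASN. Elongases of the ELOVL family then lengthen the chain in the endoplasmic reticulum, and the desaturases SCD, FADS1 and FADS2 place double bonds in it. Acyl-CoA thioesterases such as ACOT7 and ACOT9 release the free fatty acid from coenzyme A. Transcription of many of these enzymes is known to be driven by SREBP factors together with that of cholesterol synthesis.

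Each barcode of at least 1000 counts was placed in a set when 1 group of marker genes held at least 75% of the counts of all 10 markers. The ERBB2-high set (ERBB2, NNMT, TSPAN1, DHRS2) held 648 barcodes and 3442383 counts, the RARRES2-high set (RARRES2, TMEM100) 473 barcodes and 3377992 counts, and the FOLR1-high set (FOLR1, CLDN3, DEFB1, CXCL14) 765 barcodes and 4514999 counts. Median depths were 4953, 6262 and 5289 counts per barcode. Levels are summed counts of a set scaled to a total of 1000000 counts (CPM). Another 243 barcodes of that depth were in no set, and 333 were shallower. The ERBB2-high set is called SK-OV-3-like from GRB7, MIEN1, STARD3 and PGAP3, genes next to ERBB2 that the rule did not use and that were highest there (528 against 143 and 103 CPM for MIEN1, 214 against 22.2 and 13.3 for STARD3). ERBB2 itself was a marker of the rule, so its level there is no sign of identity. CDKN2A, which SK-OV-3 is known to lack, had 1 count in the ERBB2-high, 0 in the RARRES2-high and 88 in the FOLR1-high set, so it does not tell the first 2 sets apart. The other sets are named by their leading genes, and which of them is IGROV1 or COV504 was not settled. All 5 epithelial markers were detected in every set. Leukocyte markers summed to at most 0.443 CPM in any set, with 4, 3 and 2 of the 4 genes at 0. Fibroblast markers summed to 111, 27.8 and 3.32 CPM in the ERBB2-high, RARRES2-high and FOLR1-high sets, mostly COL1A1, and DCN was at 0 in all of them. Endothelial markers summed to 1.45, 31.4 and 5.76 CPM, of which CDH5 gave 30.5 CPM in the RARRES2-high set, where PECAM1 was at 0. The part of these markers in the results was not tested. The sets are parts of 1 library and not replicates, so no test between them was possible and no p-value is given. Every interval below is a 95% interval that covers counting error only.

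The sequences that separate the forms of ACOT9 and ELOVL5 are shown because these 2 members differed most between sets in which transcript was read. They are taken from GENCODE release 29 transcripts (GRCh38). In ACOT9, capitals mark the 27 coding bases of exon 3 (chrX:23734341-23734367, minus strand) between the last 30 bases of exon 2 and the first 30 of the next exon. The second line is the junction that skips it.
ACOT9 with exon 3: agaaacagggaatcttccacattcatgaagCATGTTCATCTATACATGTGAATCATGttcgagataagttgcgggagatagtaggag
ACOT9 without exon 3: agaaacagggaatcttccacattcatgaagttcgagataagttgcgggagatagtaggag
In ELOVL5, lower case gives the last 30 bases of exon 2, which both forms share, and capitals give the exon that follows. The short form goes on into a terminal exon of its own (chr6:53294088-53294491, minus strand), printed to its TGA stop codon. The long form goes on into the next coding exon (chr6:53291776-53291963), of which the first 90 bases are printed.
ELOVL5 short form: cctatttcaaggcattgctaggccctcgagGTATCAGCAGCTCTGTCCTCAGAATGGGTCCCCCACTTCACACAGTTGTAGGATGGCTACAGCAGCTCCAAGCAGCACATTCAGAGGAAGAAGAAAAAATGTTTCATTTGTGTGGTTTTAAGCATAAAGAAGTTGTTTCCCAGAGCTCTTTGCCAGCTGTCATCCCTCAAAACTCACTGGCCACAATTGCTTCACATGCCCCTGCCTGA
ELOVL5 long form: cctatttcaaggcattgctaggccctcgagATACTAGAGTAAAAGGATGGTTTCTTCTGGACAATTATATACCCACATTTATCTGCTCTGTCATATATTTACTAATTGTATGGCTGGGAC

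Summed over the 10 genes, the level was 907 CPM in the ERBB2-high set, 764 in the RARRES2-high set and 559 in the FOLR1-high set. The ERBB2-high set was highest for 5 of the 10 genes, the RARRES2-high set for 4 and the FOLR1-high set for ELOVL6 (under the size factors described below, also for ELOVL1). Over all 9771 gene entries of 1 gene with at least 50 counts in the 3 sets together, 47.6%, 32.3% and 20.2% were highest in these sets, so the members followed the split of genes in general. At a limit of 2-fold, 2 of 10 members differed between the ERBB2-high and RARRES2-high sets (34.2% of all genes tested, either direction), 4 between the ERBB2-high and FOLR1-high sets (35.4%) and 4 between the RARRES2-high and FOLR1-high sets (34.9%). These shares of members lie near the background.

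The scale matters in all 3 pairs. Mitochondrial transcripts took 7.07% of counts in the FOLR1-high set against 2.93% and 3.11% in the others. The median log2 ratio of all tested genes was 0.21 for ERBB2-high over RARRES2-high, 0.45 for ERBB2-high over FOLR1-high and 0.20 for RARRES2-high over FOLR1-high. The members' own medians were -0.07, 0.48 and 0.47. Ratios were also scaled by median-of-ratios size factors, which centre the genes in common. On that scale the shares of all tested genes at least 2-fold higher in the first and in the second set of each pair were 17.4% and 15.3%, 15.8% and 14.5%, and 16.7% and 17.2%, against 21.1% and 13.1%, 26.1% and 9.33%, and 22.0% and 12.9% on the CPM scale. Values on that scale are given below where they end or add a 2-fold difference of a member, of an ELOVL5 or ACOT9 form, of a neighbour counted past 2-fold or in the count of a list.

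**Figure D1:**
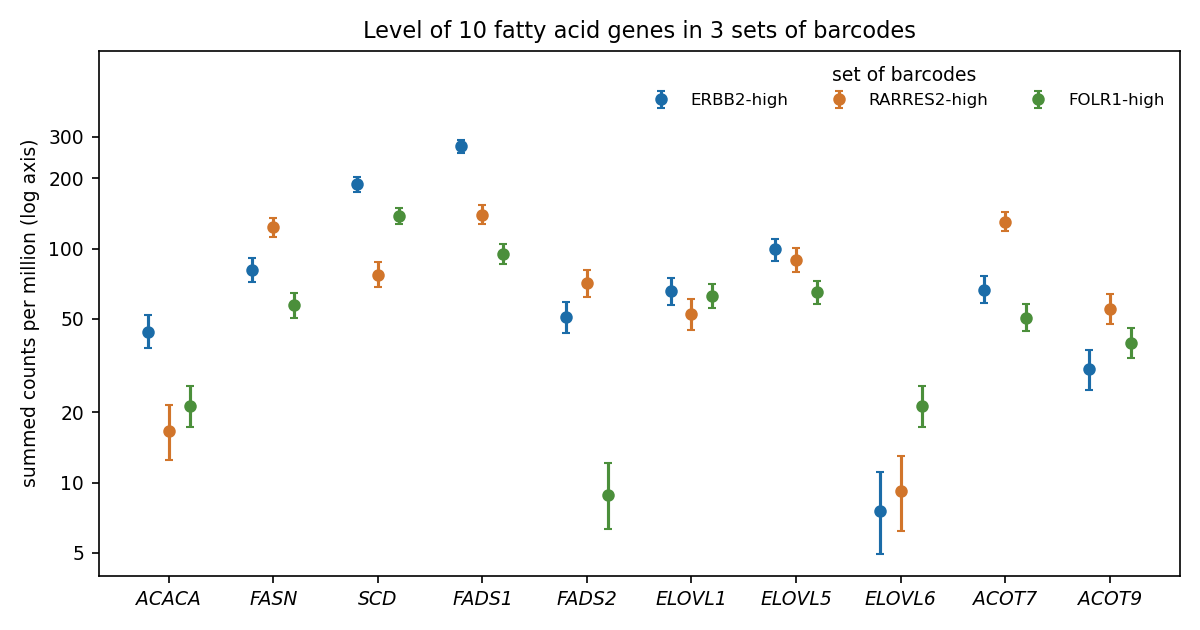
Summed CPM (log axis) of each gene in the ERBB2-high, RARRES2-high and FOLR1-high sets of barcodes, with points for the sums and bars for exact 95% Poisson intervals of counting error. FADS2 stands at 8.86 CPM in the FOLR1-high set against 50.8 and 71.0 in the others, and on this scale ELOVL6 is the gene with its highest level in the FOLR1-high set.

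The 2 genes of chain synthesis were highest in different sets. ACACA, the acetyl-CoA carboxylase that commits carbon to fatty acids, lies at chr17:37084988-37406780 on the minus strand. It had 152 counts in the ERBB2-high set (44.2 CPM, interval 37.4 to 51.8), 56 in the RARRES2-high set (16.6 CPM, 12.5 to 21.5) and 96 in the FOLR1-high set (21.3 CPM, 17.2 to 26.0). On the CPM scale only the ERBB2-high set stood apart. It was at 2.66 times the RARRES2-high level (interval 1.95 to 3.69) and 2.08 times the FOLR1-high level (1.60 to 2.71). Under size factors the second ratio was 1.59, under the 2-fold limit.

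FASN, which condenses the malonyl units into palmitate, showed another order. It lies at chr17:82078333-82098332 on the minus strand and had 280, 416 and 258 counts in the ERBB2-high, RARRES2-high and FOLR1-high sets. These are 81.3 CPM (interval 72.1 to 91.4), 123 CPM (112 to 136) and 57.1 CPM (50.4 to 64.6), and the intervals do not overlap on this scale. The ERBB2-high over FOLR1-high ratio of 1.42 (1.20 to 1.69) fell to 1.09 under size factors, so the order of these 2 sets is not settled. The RARRES2-high level was 2.16 times the FOLR1-high level (1.84 to 2.53), or 1.82 times under size factors. ACACA did not follow this order. On the CPM scale its RARRES2-high and FOLR1-high levels did not differ beyond counting error, with a ratio of 0.780 (0.550 to 1.10). That ratio was 0.659 under size factors, so whether these 2 sets differ in ACACA is not settled.

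ACACA lies 2.28 Mb from ERBB2, the gene that marks the ERBB2-high set. Of 15 other genes with at least 50 counts within 1000000 bases of ACACA, 8 were highest in the ERBB2-high set, near the 47.6% of all genes. Of the 13 with at least 50 counts in both pairs, GGNBP2 and SOCS7, 2 genes, were at least 2-fold higher there than in both other sets, near the 11.6% of all genes tested in both pairs. GGNBP2, for example, had 184 CPM against 70.5 and 59.4. Under size factors SOCS7 was lost, at ratios of 1.99 and 1.76. Copy number was not measured, and its part in the ACACA level was not tested.

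Among the desaturases, all 3 genes differed in order between sets. SCD, which makes monounsaturated from saturated acyl-CoA, lies at chr10:100347124-100364834 on the plus strand and had 647, 261 and 620 counts in the ERBB2-high, RARRES2-high and FOLR1-high sets. These are 188 CPM (174 to 203), 77.3 CPM (68.2 to 87.2) and 137 CPM (127 to 149). The ERBB2-high level was 2.43 times the RARRES2-high level (2.10 to 2.82). The RARRES2-high level was 0.563 of the FOLR1-high level (0.485 to 0.651), which became 0.476 and so passed 2-fold under size factors. The ERBB2-high over FOLR1-high ratio of 1.37 (1.22 to 1.53) fell to 1.05 under size factors.

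FADS1, a front-end desaturase of polyunsaturated fatty acids, had 940, 472 and 428 counts in the same order of sets. These are 273 CPM (256 to 291), 140 CPM (127 to 153) and 94.8 CPM (86.0 to 104). The ERBB2-high level was 2.88 times the FOLR1-high level (2.57 to 3.24) and 1.95 times the RARRES2-high level (1.75 to 2.19). In barcodes thinned to 2000 counts, 39.8% of the ERBB2-high set had a FADS1 count (interval 35.8 to 43.8%), against 24.2% (20.2 to 28.4%) and 16.2% (13.6 to 19.1%) in the RARRES2-high and FOLR1-high sets. Without thinning these shares were 63.7%, 53.7% and 38.3%.

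FADS2, the other front-end desaturase, had the widest range of the 10 genes. It had 175 counts in the ERBB2-high set (50.8 CPM, 43.6 to 59.0), 240 in the RARRES2-high set (71.0 CPM, 62.3 to 80.6) and 40 in the FOLR1-high set (8.86 CPM, 6.33 to 12.1). The RARRES2-high level was 8.02 times the FOLR1-high level (5.72 to 11.5) and the ERBB2-high level 5.74 times (4.05 to 8.31). Both ratios stayed above 4 under size factors, at 6.78 and 4.39. The FOLR1-high set thus had a low FADS2 level while its FADS1 level was 0.678 of that in the RARRES2-high set (0.594 to 0.775).

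At 2000 counts a barcode, 1.91% of FOLR1-high barcodes had a FADS2 count (1.05 to 3.18%), against 10.2% (7.93 to 12.9%) of ERBB2-high and 11.1% (8.30 to 14.4%) of RARRES2-high barcodes. Unthinned, these shares were 5.10%, 21.5% and 33.4%. No cell type known to lack FADS2 was in the library, so how much of the FOLR1-high share is free RNA was not tested. The 40 FADS2 counts of that set came from 39 barcodes, with at most 2 in any barcode.

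FADS1 (chr11:61799625-61817162, minus strand) and FADS2 (chr11:61792980-61867354, plus strand) overlap on opposite strands. No source used here states whether strand entered the counting. The first exon of FADS2 form ENST00000257261 (61816256 to 61816426) lies inside the FADS1 gene but overlaps 0 FADS1 exons of the listed transcripts. FADS1 was read almost entirely as ENST00000350997, with 99.0%, 98.5% and 96.1% of its counts. FADS2 was divided between 2 first exons, with 45.0%, 45.2% and 49.0% of its counts on ENST00000257261 and 52.0%, 50.6% and 46.5% on ENST00000278840. Both forms were read in every set, and 30.9%, 32.5% and 10.0% of FADS2 counts were assigned whole to 1 transcript. The FOLR1-high shares rest on 40 counts, with intervals of 33.8 to 66.2% for ENST00000257261 and 31.5 to 63.9% for ENST00000278840, too wide to compare with the other sets.

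FADS3, the neighbour in the same gene cluster, had 38.6, 24.3 and 26.6 CPM in the ERBB2-high, RARRES2-high and FOLR1-high sets. MYRF, within 100000 bases of FADS1, had 26.4, 2.37 and 15.1 CPM. Of 6 other genes in that window with at least 50 counts, 2 were highest in the ERBB2-high set, against 47.6% of all genes. Of the 5 with at least 50 counts in both pairs, 0 were 2-fold higher there than in both other sets, against 11.6% of all genes tested so, and these genes are too few to read against either share. Among 3079 genes with at least 500 counts, those whose centred log2 levels over the 3 sets lay closest to FADS2 were SLC5A3 and JUN, within 0.17 and 0.19. For FADS1 they were PAPD5 and EIF4G3, within 0.01 and 0.02, and for ELOVL6 MT-CYB and BST2, within 0.03 and 0.04. Among so many genes some lie close to any 3 values, so these distances are no sign of a shared control. ELOVL6 rests on 26, 31 and 96 counts in the ERBB2-high, RARRES2-high and FOLR1-high sets, so its own levels are less certain than its distances.

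The elongases differed less in level, with ELOVL6 as the exception. ELOVL6 extends palmitate-length chains and lies at chr4:110045846-110198676 on the minus strand. It had 26 counts in the ERBB2-high set (7.55 CPM, 4.93 to 11.1), 31 in the RARRES2-high set (9.18 CPM, 6.24 to 13.0) and 96 in the FOLR1-high set (21.3 CPM, 17.2 to 26.0). The FOLR1-high level was 2.82 times the ERBB2-high level (1.81 to 4.53) and 2.32 times the RARRES2-high level (1.53 to 3.59). The other 2 sets did not differ beyond counting error, with a ratio of 0.823 (0.469 to 1.43).

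ELOVL1, which lengthens saturated very long chains, lies at chr1:43363397-43368074 on the minus strand and had 226, 177 and 284 counts in the ERBB2-high, RARRES2-high and FOLR1-high sets. These are 65.7 CPM (57.4 to 74.8), 52.4 CPM (45.0 to 60.7) and 62.9 CPM (55.8 to 70.7). Its highest level was 1.25 times its lowest (1.02 to 1.53), the narrowest range of the 10 on the CPM scale. The order of the ERBB2-high and FOLR1-high sets is not settled, since their ratio of 1.04 (0.873 to 1.25) turned to 0.799 under size factors.

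ELOVL5, an elongase of polyunsaturated fatty acids, lies at chr6:53267398-53349179 on the minus strand. It had 341 counts in the ERBB2-high set (99.1 CPM, 88.8 to 110), 302 in the RARRES2-high set (89.4 CPM, 79.6 to 100.1) and 294 in the FOLR1-high set (65.1 CPM, 57.9 to 73.0). The FOLR1-high level was lower, with an ERBB2-high over FOLR1-high ratio of 1.52 (1.30 to 1.78), or 1.16 under size factors. The gene sum joins forms that moved in opposite directions.

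The short form of ELOVL5, ENST00000370913, has 3 exons, 580 bases and 88 codons, against 8 exons and 299 codons in the long form ENST00000304434. It held 16.7% of ELOVL5 counts in the ERBB2-high set (12.9 to 21.1%), 22.5% in the RARRES2-high set (17.9 to 27.7%) and 53.4% in the FOLR1-high set (47.5 to 59.2%). The larger share of ELOVL5 counts of the FOLR1-high set was thus on the form whose own terminal exon holds an early TGA stop codon. Its level was 34.8 CPM there (29.5 to 40.7), against 16.6 CPM (12.5 to 21.5) in the ERBB2-high and 20.1 CPM (15.6 to 25.5) in the RARRES2-high set.

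The 3 long forms together went the other way, at 82.5, 69.3 and 30.3 CPM in the ERBB2-high, RARRES2-high and FOLR1-high sets. Relative to the FOLR1-high set, the long forms were 2.72 times higher in the ERBB2-high set (2.21 to 3.36) and 2.28 times higher in the RARRES2-high set (1.84 to 2.84). The short form was 0.476 (0.345 to 0.649) and 0.579 (0.429 to 0.774) of its FOLR1-high level in those sets. Under size factors the RARRES2-high over FOLR1-high ratios became 1.93 for the long forms, under 2-fold, and 0.490 for the short form, past it. Its 157 whole counts in the FOLR1-high set came from 138 barcodes, with at most 3 in any of them.

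**Figure D2:**
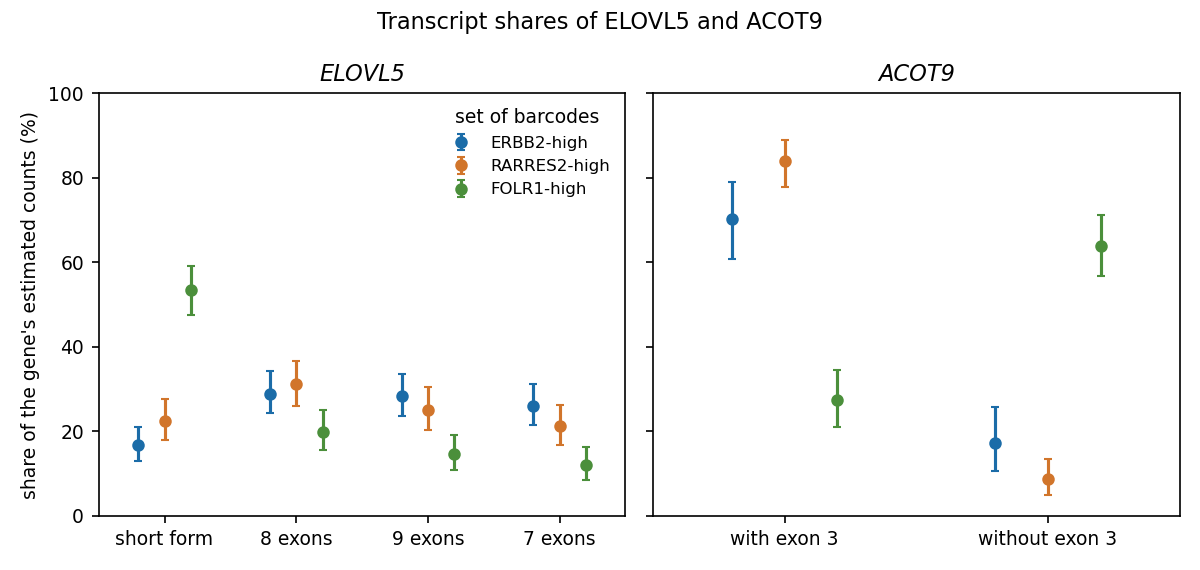
Share of the gene's estimated counts (percent) on each named transcript of ELOVL5 (left) and ACOT9 (right) in the 3 sets, with exact 95% Clopper-Pearson intervals. The FOLR1-high set stands apart in both genes, with 53.4% on the short ELOVL5 form and 64.0% on ENST00000336430, an ACOT9 form without exon 3.

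The short form's reads are unambiguous, since its terminal exon is its own, whereas reads of the long forms are mostly shared. Nearly all of its counts were whole, while the 3 long forms had between 0 and 12 whole counts each per set. Counting whole entries alone therefore raised the short-form share to 83.8%, 71.6% and 95.2%, and the difference between the ERBB2-high and FOLR1-high sets then no longer reached 20 points. The FOLR1-high set kept the highest share. The CPM of the short form does not depend on how the long forms were divided.

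In ACOT9, a mitochondrial acyl-CoA thioesterase, the gene sum again concealed 2 forms of opposite order. The gene lies at chrX:23702253-23766475 on the minus strand. It had 105 counts in the ERBB2-high set (30.5 CPM, 24.9 to 36.9), 187 in the RARRES2-high set (55.4 CPM, 47.7 to 63.9) and 179 in the FOLR1-high set (39.6 CPM, 34.1 to 45.9). The ERBB2-high level was 0.551 of the RARRES2-high level (0.430 to 0.703), and 0.499 under size factors, just past 2-fold.

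ENST00000379303, which carries the printed 27-base exon, held 70.4% of ACOT9 counts in the ERBB2-high set (60.8 to 79.0%), 83.9% in the RARRES2-high set (77.9 to 88.9%) and 27.3% in the FOLR1-high set (21.0 to 34.5%). ENST00000336430, which lacks it, held 17.2% (10.5 to 25.7%), 8.72% (4.97 to 13.5%) and 64.0% (56.8 to 71.3%). Most ACOT9 counts of the FOLR1-high set were thus assigned to the form without the exon and most of those of the other 2 sets to the form with it. The exon is a multiple of 3 in length, and the forms code for 448 and 439 codons.

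The level of the form with exon 3 was 21.5 CPM (16.9 to 27.0), 46.4 CPM (39.5 to 54.3) and 10.8 CPM (8.03 to 14.3) in the ERBB2-high, RARRES2-high and FOLR1-high sets. ENST00000336430 alone had 5.25 CPM (3.10 to 8.26), 4.83 CPM (2.71 to 7.69) and 25.4 CPM (21.0 to 30.6). It was 4.84 times higher in the FOLR1-high than in the ERBB2-high set (2.95 to 8.51) and 5.26 times higher than in the RARRES2-high set (3.17 to 9.72). Of the 4 listed ACOT9 transcripts, ENST00000379295 and ENST00000492081 also lack the exon. All 3 without it together had 9.04 CPM (6.12 to 12.8), 8.91 CPM (5.99 to 12.7) and 28.8 CPM (24.1 to 34.2), or 29.6% (21.0 to 39.2%), 16.1% (11.1 to 22.1%) and 72.7% (65.5 to 79.0%) of ACOT9 counts. Summed so, the FOLR1-high level was 3.19 times the ERBB2-high level (2.15 to 4.90) and 3.23 times the RARRES2-high level (2.17 to 5.0).

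Whole counts gave the same picture, with 46, 96 and 31 for the form with exon 3 and 6, 5 and 97 for the form without it. The 97 whole counts came from 90 barcodes, with at most 2 in any of them. Of whole ACOT9 counts, 86.8%, 92.3% and 23.3% were on the form with exon 3. These 2 transcripts also end differently, at 23702253 with exon 3 and at 23703671 without it, so the last exon is 1730 against 312 bases long. Reads of the 2 forms thus differ in the 3′ end of the model as well as in the exon, and which of them set the assignment was not tested.

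**Figure D3:**
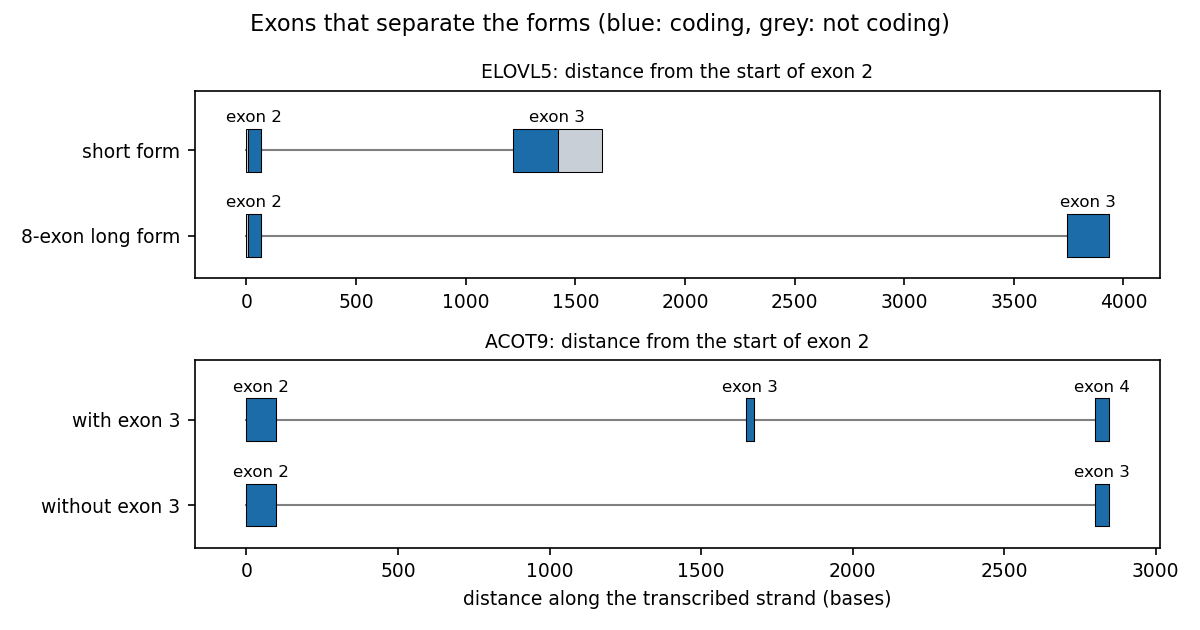
Exons that separate the 2 ELOVL5 forms (top) and the 2 ACOT9 forms (bottom), drawn to scale in bases from the start of exon 2, with coding parts in blue, other exon parts in grey and introns as lines. The short ELOVL5 form ends in its own exon ahead of exon 3 of the long form, and the 27-base exon 3 of ACOT9 lies between exons shared by both forms.

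Set against all genes, the 2 genes ranked high for transcript use. Of the members with at least 2 transcripts and 50 counts in both sets, 0 of 8 differed by 20 points or more in any transcript share between the ERBB2-high and RARRES2-high sets (2.45% of all 4240 genes tested). Between the ERBB2-high and FOLR1-high sets 2 of 7 did (2.21% of 4472 genes), with ACOT9 at 46.8 points, rank 3, and ELOVL5 at 36.7 points, rank 8. Between the RARRES2-high and FOLR1-high sets the same 2 of 7 did (3.26% of 4114 genes), with ACOT9 at 56.6 points, rank 2, and ELOVL5 at 30.9 points, rank 40. Both pairs share the FOLR1-high set, so they are not separate evidence.

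Other members differed less in their estimated transcript shares, though several of them were only partly resolved. The largest difference of FASN in any pair was 9.11 points, that of ACACA 6.14, of ACOT7 5.91, of ELOVL1 5.27 and of FADS1 2.94. ELOVL6 and, in pairs with the FOLR1-high set, FADS2 had too few counts to enter, and SCD has 1 listed transcript. FASN was divided between ENST00000306749 (67.6%, 73.1% and 64.0%) and ENST00000634990 (32.4%, 26.9% and 36.0%), which code for 2511 and 2509 codons. ACACA was divided by its first exons, with 43.6%, 42.8% and 46.0% on ENST00000614428, 31.1%, 25% and 26.2% on ENST00000616317 and 21.3%, 23.2% and 20.5% on ENST00000612895. ELOVL1 was read mostly as ENST00000372458, at 56.1%, 57.3% and 61.4%. ELOVL1 forms ENST00000621943 (26.6%, 26.0% and 24.5%) and ENST00000413844 (17.3%, 16.7% and 14.2%) held the rest. Whole counts were 31.4%, 27.4% and 39.1% for FASN, 25.7%, 23.2% and 25.0% for ACACA and 30.1%, 30.5% and 37.7% for ELOVL1. These shares thus rest mostly on counts divided between forms. ENST00000612895 had 1, 0 and 0 whole counts. Of whole ELOVL1 counts, ENST00000372458 held 72.1% (59.9 to 82.3%), 72.2% (58.4 to 83.5%) and 86.0% (77.9 to 91.9%).

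ACOT7, a cytosolic thioesterase abundant in neurons, lies at chr1:6264269-6394391 on the minus strand. It had 230 counts in the ERBB2-high set (66.8 CPM, 58.5 to 76.0), 440 in the RARRES2-high set (130 CPM, 118 to 143) and 229 in the FOLR1-high set (50.7 CPM, 44.4 to 57.7). The RARRES2-high level was 2.57 times the FOLR1-high level (2.18 to 3.03). The ERBB2-high level was 0.513 of the RARRES2-high level (0.435 to 0.603), which became 0.464 and so passed 2-fold under size factors. Both thioesterases were thus highest in the RARRES2-high set on the CPM scale. For ACOT9 the RARRES2-high over FOLR1-high ratio was 1.40 (1.13 to 1.72), or 1.18 under size factors, so its order in these 2 sets is less certain. Only 3.91%, 4.32% and 4.37% of ACOT7 counts were whole, so its 6 forms, which differ in their first exons, were hardly resolved.

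The share of barcodes with a count gave the same order of sets as the CPM for all 10 genes when each barcode was thinned to 2000 counts. SCD was found in 31.4% of ERBB2-high, 14.7% of RARRES2-high and 19.8% of FOLR1-high barcodes (55.2%, 37.2% and 44.4% without thinning). FASN was found in 13.4%, 22.1% and 8.32% (30.4%, 49.3% and 24.4% without thinning) and ACACA in 9.08%, 4.06% and 4.37% (20.2%, 11.0% and 11.4%). No barcode held more than 8 FASN or 3 ACACA counts. For the elongases, thinned shares were 13.0%, 8.13% and 11.2% for ELOVL1 (27.9%, 26.85% and 27.2% without thinning), 17.2%, 15.6% and 11.05% for ELOVL5 (38.6%, 41.4% and 30.3%) and 1.65%, 2.71% and 4.23% for ELOVL6 (3.86%, 5.92% and 11.8%). ACOT7 was found in 12.7%, 23.5% and 8.73% of thinned barcodes (27.8%, 53.3% and 23.8% without thinning) and ACOT9 in 5.28%, 9.93% and 7.23% (14.04%, 29.2% and 20.5%).

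Other lipid genes were counted by list. In the comparison of the ERBB2-high with the RARRES2-high set, 9 of 19 cholesterol synthesis and uptake genes were at least 2-fold higher in the ERBB2-high set and EBP alone was lower (21.1% and 13.1% of all genes). The list's median log2 ratio was 1.00, against 0.21 over all genes. Of 9 other fatty acid synthesis genes 4 were higher and 0 lower, with a median of 0.92. Under size factors the counts were 9 and 1 of the cholesterol and 3 and 0 of the synthesis genes. FASN, at 0.660 of its RARRES2-high level in the ERBB2-high set (0.566 to 0.770), had the opposite order to these medians, and SCD, at 2.43 times, the same.

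HMGCS1 and MSMO1, both enzymes of cholesterol synthesis, had 121, 21.6 and 66.7 CPM and 123, 27.2 and 64.0 CPM in the ERBB2-high, RARRES2-high and FOLR1-high sets. SC5D had 112, 35.8 and 25.2 CPM, and TM7SF2 35.4, 17.8 and 62.2 CPM. EBP, the sterol isomerase of the same pathway, had 13, 489 and 5 counts, or 3.78, 145 and 1.11 CPM. It was high in the RARRES2-high set, which had the lowest HMGCS1 and MSMO1 levels.

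Against the FOLR1-high set, 6 of 8 acyl-CoA synthetases were at least 2-fold higher in the ERBB2-high set and 0 lower (26.1% and 9.33% of all genes), with a median log2 ratio of 1.16 against 0.45 over all genes. Under size factors 3 of 8 were higher and 0 lower. These enzymes activate free fatty acids, the reverse of what thioesterases do. ACSL1 had 47.9, 9.47 and 10.6 CPM and ACSL3 209, 120 and 66.9 CPM in the ERBB2-high, RARRES2-high and FOLR1-high sets. Between the RARRES2-high and FOLR1-high sets, 1 of 7 synthetases was higher in the RARRES2-high and 0 in the FOLR1-high set (22.0% and 12.9% of all genes). In the same pair 1 of 19 cholesterol genes was higher in the RARRES2-high set and 5 in the FOLR1-high set. Size factors changed these counts to 0 and 0 synthetases and to 1 and 8 cholesterol genes.

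Single genes of the other lists are given by their levels in the ERBB2-high, RARRES2-high and FOLR1-high sets, for those whose highest set had at least 100 counts and 3 times the lowest level. HACD1, a dehydratase of the elongation cycle, had 70.6, 32.0 and 1.11 CPM, a range of 63.7-fold resting on 5 counts at its low end. CYB5A, the cytochrome that passes electrons to desaturases, had 23.5, 121 and 132 CPM, the lowest in the set where FADS1 and SCD were highest. HSD17B8, of mitochondrial fatty acid synthesis, had 22.1, 8.88 and 43.0 CPM. MID1IP1, which helps acetyl-CoA carboxylase to polymerise, had 68.8, 32.0 and 16.8 CPM, and the thioesterase ACOT13 70.0, 31.7 and 98.6 CPM.

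The remaining counts are given as higher in the first and in the second set of the pairs ERBB2-high and RARRES2-high, ERBB2-high and FOLR1-high, and RARRES2-high and FOLR1-high. Over all genes tested these shares were 21.1% and 13.1%, 26.1% and 9.33%, and 22.0% and 12.9%, and with lists of 4 to 19 tested genes most counts lie near them. Partners gave 2 and 3 of 12, 3 and 1 of 11, and 2 and 2 of 11 (under size factors 1 and 3, 1 and 1, and 2 and 3). Other thioesterases gave 2 and 0 of 4, 1 and 0 of 5, and 0 and 2 of 4, the same under size factors. Genes of SREBP and liver X receptor control gave 3 and 0 of 11, 4 and 0 of 11, and 1 and 1 of 10 (2 and 0, 3 and 1, and 0 and 1). Lipid storage and fatty acid binding genes gave 2 and 1 of 8, 3 and 1 of 9, and 2 and 3 of 10, the same under size factors. Synthesis genes gave 1 and 0 of 9 in the second pair and 0 and 2 of 9 in the last (1 and 1, and 0 and 4). Cholesterol genes gave 4 and 1 of 18 in the second pair (2 and 2), and synthetases 2 and 0 of 7 in the first, the same under size factors.

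Genes of fatty acid use were mixed. Of 15 fatty acid oxidation genes, 2 were higher and 0 lower in the ERBB2-high than in the RARRES2-high set (21.1% and 13.1% of all genes), and against the FOLR1-high set 3 of 17 were higher and 1 lower (26.1% and 9.33%). Between the RARRES2-high and FOLR1-high sets 2 of 17 were higher in the first and 4 in the second (22.0% and 12.9%). Under size factors the counts were 2 and 1, 1 and 1, and 2 and 6 for the 3 pairs. CPT1A, which admits acyl groups to mitochondria, had 18.9, 34.3 and 5.76 CPM in the ERBB2-high, RARRES2-high and FOLR1-high sets. An entry that joins ACAA2 with 2 overlapping genes had 10.2, 101 and 126 CPM. Of the lipid storage genes, MGLL had 260.6, 60.7 and 39.0 CPM, LPIN1 38.9, 6.81 and 14.6, PNPLA2 62.7, 55.95 and 20.6, and FABP3, a fatty acid binding protein, 3.78, 0.888 and 28.4.

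**Figure D4:**
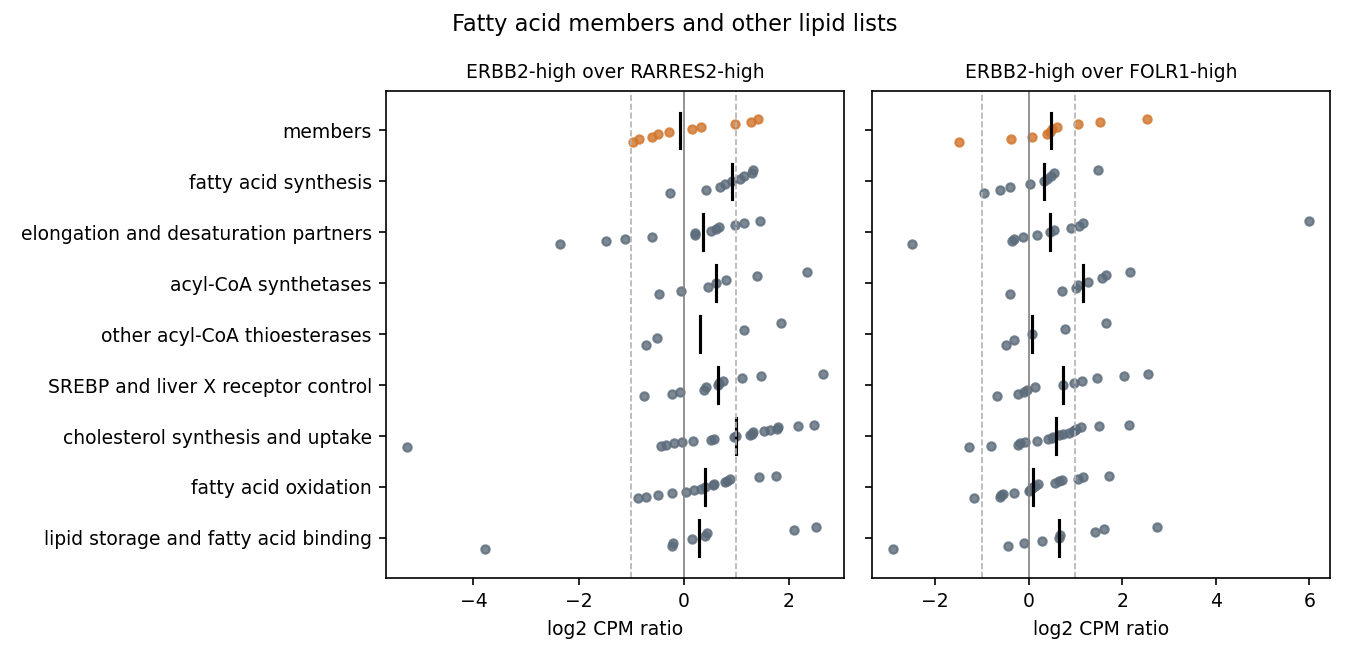
Log2 CPM ratio of each gene with at least 50 counts in the pair (points), by list, for ERBB2-high over RARRES2-high (left) and over FOLR1-high (right), with black bars for list medians and dashed lines at 2-fold. Cholesterol genes centre at 1.00 on the left and acyl-CoA synthetases at 1.16 on the right, while the members, in orange, centre at -0.07 and 0.48.

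Within each set the members were then compared between barcodes with a high and a low share of counts in the cholesterol list, which holds none of the members. This comparison was added after the values were seen. Barcodes of at least 2000 counts were ranked by that share, and the highest tertile was set against the lowest. The tertiles are ranges of a score, not cell types, with 202, 147 and 244 barcodes each in the ERBB2-high, RARRES2-high and FOLR1-high sets. The list held 0.315% against 0.0862%, 0.196% against 0.0611% and 0.229% against 0.0693% of counts.

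FASN, SCD, FADS1 and FADS2 had ratios above 1 in all 3 sets. FASN was 2.13 times higher in the highest tertile of the ERBB2-high set (1.54 to 2.96), 1.64 times in the RARRES2-high set (1.28 to 2.11) and 2.0 times in the FOLR1-high set (1.43 to 2.84). SCD was 1.73 (1.41 to 2.12), 1.80 (1.30 to 2.49) and 2.38 times higher (1.90 to 3.0). For FADS1 the ratios were 1.64 (1.38 to 1.95), 1.55 (1.23 to 1.96) and 1.25 (0.977 to 1.59), the last of which includes 1. FADS2 gave 1.87 (1.23 to 2.91), 1.67 (1.22 to 2.32) and, on 27 counts in the FOLR1-high set, 1.73 (0.739 to 4.37).

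ELOVL6 was higher too, on few counts, at 2.55 (0.867 to 9.03), 3.61 (1.41 to 10.9) and 1.77 times (1.04 to 3.10). ACACA gave 1.73 (1.11 to 2.75), 1.24 (0.589 to 2.64) and 1.30 (0.754 to 2.27). The other elongases lay near 1 in every set, with ELOVL1 between 1.10 and 1.18 and ELOVL5 between 1.05 and 1.16. ACOT9 had ratios of 0.622, 0.766 and 0.729, each with an interval that includes 1, and ACOT7 ratios of 0.816, 1.03 and 1.39.

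At a limit of 1.5-fold, 5 of 9 members with at least 50 counts were higher in the highest tertile of the ERBB2-high set (5.83% of all genes), 4 of 8 in the RARRES2-high set (4.5%) and 3 of 9 in the FOLR1-high set (6.83%). SCD and FASN were among them in all 3 sets. The members' shares lay above the background here. At 2-fold in either direction 1 of 9 members (FASN), 0 of 8 and 2 of 9 (SCD and FASN) differed, against 2.09%, 1.32% and 1.72% of all genes. Median depths were 5312, 6357 and 5929 counts in the highest tertiles and 4526, 6546 and 4809 in the lowest, and the part of depth was not tested.

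**Figure D5:**
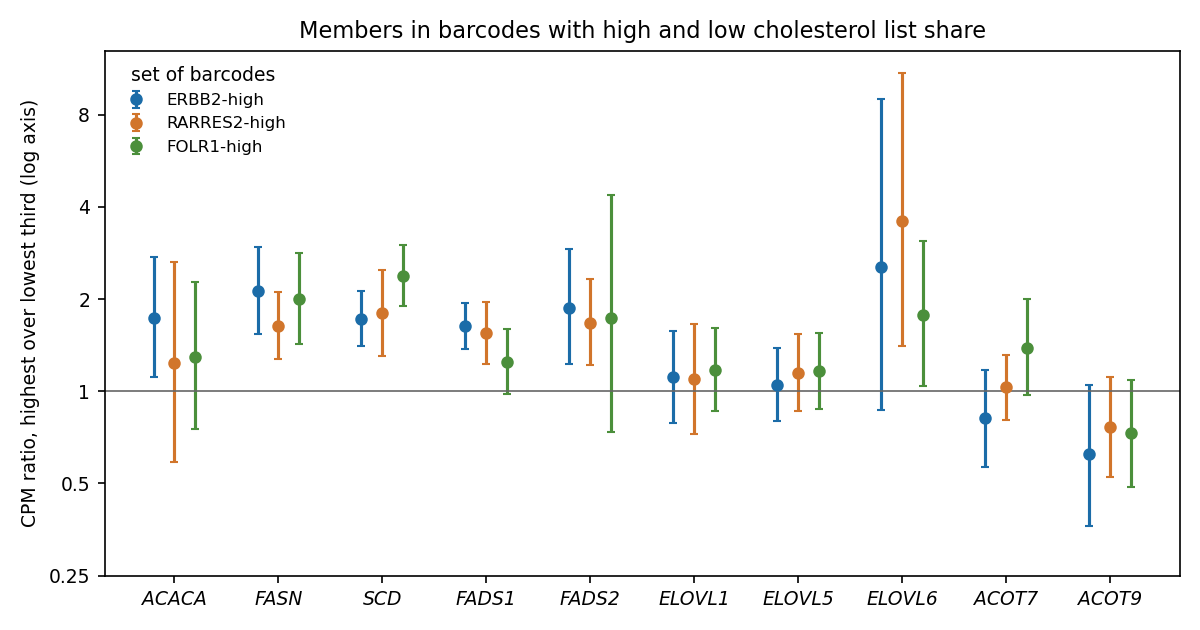
CPM ratio of each member between the highest and lowest tertile of barcodes by cholesterol list share (log axis), in the 3 sets, with exact 95% intervals of counting error and a line at equal levels. FASN, SCD, FADS1, FADS2, ELOVL6 and ACACA lie above 1 in all 3 sets, ELOVL1 and ELOVL5 between 1.05 and 1.18, and ACOT9 below 1.

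Promoter windows from RefSeq (GRCh38.p14), reaching 250 bases before and 50 after a start, covered 9 of the 10 genes in 15 windows. FASN had no window, and ACOT7, ACACA and FADS2 had more than 1, so the counts below are of windows and not of genes. The motif CCAAT, searched on both strands, was in 10 of the 15, against 34.6% of all 35116 windows. CCGCCC was also in 10, against 45.0% of all windows, CACGTG in 1 (7.26%) and TCACNCCAC in 0 (1.13%). CCAAT was found in windows of SCD, FADS2, ACACA, ELOVL1, ELOVL5, ACOT7 and ACOT9, and in none of FADS1 or ELOVL6. Genes with it thus include ELOVL1 and ELOVL5, which lay near 1 between tertiles. The SCD window is shown since SCD was higher in the highest tertile of every set, and the part of the motif in that was not tested. Its first 120 bases (chr10:100346983-100347102, plus strand) hold 2 matches of CCAAT, in capitals, starting 229 and 186 bases before the start.
SCD promoter: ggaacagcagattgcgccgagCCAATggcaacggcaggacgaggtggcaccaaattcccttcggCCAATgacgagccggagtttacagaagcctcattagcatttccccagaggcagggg

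The FOLR1-high set was also divided by CXCL14 and DEFB1, 2 of its own marker genes, into 192 barcodes with at least 75% of these counts on CXCL14 and 87 on DEFB1. A further 485 barcodes had under 3 counts of both genes and 1 was in neither range. SCD was the 1 of 7 tested members past 2-fold (10.9% of all genes). It had 86 counts in the CXCL14 barcodes (81.7 CPM) and 136 in the DEFB1 barcodes (215 CPM), a ratio of 2.64 (2.0 to 3.50). Of 3595 genes, 117 had a CXCL14 over DEFB1 ratio as low or lower.

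The other 9 members had intervals that include 1 between these barcodes. FASN was 1.5 times higher in the DEFB1 barcodes (0.929 to 2.41) and FADS1 1.35 times (0.975 to 1.86). The cholesterol list summed to 1242 against 1647 CPM, so it was 1.33 times higher in the DEFB1 barcodes (1.22 to 1.44). This was not particular to that list, since partners were 1.37 times higher there (1.23 to 1.54), SREBP control genes 1.32 times (1.10 to 1.59), other synthesis genes 1.28 times (1.09 to 1.51), synthetases 1.27 times (1.02 to 1.58) and mitotic genes 1.21 times (1.13 to 1.31). It did not hold for every list: the ratio was 1.05 (0.968 to 1.15) for fatty acid oxidation, 1.09 (0.942 to 1.25) for lipid storage and 0.820 (0.632 to 1.06) for other thioesterases, with intervals that include 1. The ELOVL5 short form held 63.6% (51.9 to 74.3%) of 77 counts in the CXCL14 and 45.9% (29.5 to 63.1%) of 37 counts in the DEFB1 barcodes. ENST00000336430 of ACOT9 held 64.8% (48.0 to 78.4%) of 42 and 86.7% (59.5 to 98.3%) of 15 counts. Both ranges of barcodes thus had higher shares of these forms than the other 2 sets. The CXCL14 barcodes were shallower, at a median of 4887 counts against 6526.

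Barcodes with at least 0.2% of counts in a list of mitotic genes were set against the rest of their set, with 110 against 538 barcodes in the ERBB2-high, 245 against 228 in the RARRES2-high and 151 against 614 in the FOLR1-high set. Within 25% of that limit lay 25, 100 and 43 barcodes, so many RARRES2-high barcodes lie near it. Past 2-fold were 0 of 9 tested members in each of the ERBB2-high (7.33% of all genes), RARRES2-high (2.63%) and FOLR1-high sets (5.67%). In the ERBB2-high set SCD was at 0.647 of its level in the rest (0.518 to 0.801), and ELOVL5, ACOT7 and ACOT9 were at 1.60 (1.26 to 2.02), 1.71 (1.28 to 2.26) and 1.58 times (1.02 to 2.42). In the other sets SCD was at 1.27 (0.982 to 1.65) and 1.02 (0.837 to 1.23). FADS1 and FADS2 were higher in the mitotic range of the RARRES2-high set, at 1.33 (1.09 to 1.61) and 1.40 times (1.065 to 1.85). In the FOLR1-high set ACOT7 was at 1.38 times (1.02 to 1.85) and ELOVL1 at 0.692 (0.495 to 0.949). The other members had intervals that include 1. Barcodes in the mitotic range were deeper, with medians of 7013, 7222 and 6324 counts against 4721, 5665 and 5164, and the part of depth in these ratios was not tested. Between sets, 6 of 15 mitotic genes were at least 2-fold higher in the RARRES2-high than in the ERBB2-high set and 0 lower (13.1% and 21.1% of all genes). Against the FOLR1-high set 5 were higher and 0 lower (22.0% and 12.9%). Under size factors 7 and 4 were higher. The part of cycling in the levels of the members between sets was not tested.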

How the data were processed

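The authors deposited estimated counts per transcript and barcode for the PromethION library, not normalised. The series title names Isosceles; the submitters' processing notes name Cell Ranger 6.0.1 and GRCh38. The aligner, the annotation release and how molecular identifiers and strand were handled were not given in the sources used here. Of matrix entries, 39.8% were whole within 1e-06; gene sums were rounded to whole numbers. Member transcripts matched GENCODE release 29 in all 39 cases, with the same start and end. Lines are barcode sets as described, doublets were kept, and CPM is relative to all counts of a set. Intervals are exact Poisson (counts), Clopper-Pearson (shares) and conditional binomial (ratios), at 95%. A ratio between sets was counted where both sets together had at least 50 counts, over entries of 1 gene (722 joint entries left out). A set at 0 entered with 3 counts. Thinning was without replacement to 2000 counts, which left out 42, 30 and 32 barcodes of the ERBB2-high, RARRES2-high and FOLR1-high sets. Members, markers and lists were chosen with earlier results of these data known. Every member is named. Of each other list, at most 5 genes are named, those with a highest set of at least 100 counts and 3 times the lowest; ACACA and FADS1 neighbours were named after their values were seen. Ratios were tested on simulated data. Alternatives covered marker share, barcode depth, Scrublet doublets (scanpy 1.11.5), scale, thresholds and whole entries. Python with numpy, scipy and pandas was used.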

Additional observations from a re-analysis of the deposited data

How the results depend on the processing

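Counts of members past 2-fold kept within 1.5 times their value under every other marker share, least depth, doublet removal and scale tried, except that ERBB2-high against RARRES2-high went from 2 to 4 under median-of-ratios size factors, which added ACOT7 and ACOT9. Which members were called did change with the scale: ACACA (ERBB2-high against FOLR1-high) and FASN (RARRES2-high against FOLR1-high) were lost and SCD gained in the last pair, both under size factors and without the 117 mitochondrial and ribosomal protein genes. ACOT7 was gained in ERBB2-high against RARRES2-high also without those genes and at a 90% marker share, which lost ACACA in ERBB2-high against FOLR1-high. A 1.5-fold limit gave 6 for ERBB2-high against RARRES2-high, and a 3-fold limit gave 0, 1 and 1 for the 3 pairs in the order above, the 1 being FADS2. For transcript shares, a 10-point limit gave 1 (ACOT9) for ERBB2-high against RARRES2-high, and whole entries alone gave 1 (ACOT9) for ERBB2-high against FOLR1-high. List genes past 2-fold numbered 31 of 85, 29 of 88 and 28 of 87 tested in the 3 pairs (all genes 34.2%, 35.4% and 34.9%), 52, 49 and 53 past 1.5-fold, and 29, 22 and 34 past 2-fold under size factors (added after seeing the data). Between cholesterol tertiles, a 2-fold limit in place of 1.5-fold gave 1, 0 and 2 members in the ERBB2-high, RARRES2-high and FOLR1-high sets, and the 2 other least depths tried, 1 lower and 1 higher, gave the same counts. This comparison and its alternatives were chosen after seeing the data. No called ratio changed direction. Scrublet called 49 of 2129 barcodes, 14 of them in a set. No paired analysis was possible because 1 library gives all values and no result comes from a test. Depth limits most ELOVL6 (26, 31 and 96 counts) and FADS2 in the FOLR1-high set (40 counts), whose transcript shares there were not compared. No sample was left out, since there is 1.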
